A study of Mus musculus with 4 samples.

Results

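A group of genes of the epithelial-mesenchymal transition were followed in mouse epidermal stem cells at the start and at the end of a long serial culture. They are the filament gene Vim, the cadherin gene Cdh2, the transcription factor genes Snai1, Snai2, Twist1, Twist2, Zeb1 and Zeb2, and the splicing regulator genes Esrp1 and Esrp2. They were chosen by gene name among the non-control probes of the arrays, which gave 10 genes with 13 probes, out of 31896 gene names and 39429 probes in all. The RNAs came from adult C3H/HeN mouse primary skin epithelial cells sorted as CD49f+ CD34+. The 0p cells were the freshly sorted population, while 15p cells had passed through 15 successive cultures with Wnt-3a, each of 10 days in 60-mm dishes coated with collagen, before their sort. The labels list Wnt-3a for 0p and 15p RNA alike, so whether the 0p cells met it before lysis is not settled here. Each of 4 two-colour arrays carried both RNAs, and each of 2 biological replicates was hybridised once per dye orientation. An array with 15p RNA in Cy5 is called forward below, and one with 15p RNA in Cy3 reverse. The labels do not say whether the replicates were separate animals, so the spread behind the p-values may be technical. With 1 residual degree of freedom a gene, limma takes most of that spread from all genes together.

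In an epithelial-mesenchymal transition, epithelial cells lose their junctions and gain the shape and motility of mesenchymal cells. Proteins of the Snail, Twist and Zeb families bind E-box sequences and repress epithelial genes such as Cdh1, while vimentin and N-cadherin are among the products that mesenchymal cells gain. Esrp1 and Esrp2 keep transcripts such as those of Fgfr2 and Cd44 in their epithelial splice forms. In skin, Snai2 is known from basal keratinocytes and from the edge of healing wounds.

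The arrays were not equal, and this bears on every ratio below. On the forward array of replicate 2, log2 ratios had an SD of 0.29 across genes, against 0.13 to 0.14 on the other 3 arrays. Ratios of 15p over 0p ran opposite within each dye-swapped pair, with a Pearson r across genes of -0.55 in replicate 1 and -0.40 in replicate 2. Genes are not independent replicates, and these values are a description. The direction of every ratio rests on the dyes as labelled. Were an array labelled with the wrong dyes, the RNA difference would cancel in the mean of its pair and appear in the Cy5 over Cy3 ratio, and in these arrays a dye difference and such a mix-up cannot be told apart. The share of spots well above background ran from 55.5% to 68.3% over the arrays and dyes. The number of arrays limits the precision. The sorted cells carried basal keratinocyte markers, with 6 of 6 listed genes, Krt5, Krt14 and Trp63 among them, well above background on all arrays in both RNAs. Cd34, the second sort marker, was well above background on 1 of 4 arrays in 0p cells and on 0 of 4 in 15p cells, and Lgr5 and Lhx2 of the bulge stem cell list were so on no array. The other 3 genes of that list, Krt15, Sox9 and Nfatc1, were so on all arrays in both RNAs. Krt15 had a log2 ratio of 15p over 0p of 0.17 ± 0.033 (SD, n = 2) and Sox9 of -0.38 ± 0.60, with unadjusted limma p of 0.0101 and 0.0243, and neither passed (adjusted p = 0.749 for both). On the forward and reverse arrays of replicate 1, then of replicate 2, Krt15 had 0.31, -0.012, 0.48 and -0.093, so its sign turned with the dye. Sox9 had 0.14, -0.059, -1.56 and -0.053, so its mean rests on the forward array of replicate 2. Krt14 had 0.19 ± 0.12, with an unadjusted limma p of 0.0108, and did not pass (adjusted p = 0.749). Its ratios in that order were 0.085, 0.12, 0.73 and -0.18.

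The probes of one gene can lie in different parts of its transcript, and for Esrp1 this was the case. Its probe A_55_P2033767 starts at transcript position 1916 (mm9 chromosome 4, 11284629 to 11284688, minus strand), and its probe A_55_P2182586 at position 2781 (11260208 to 11260267). The starts are 24421 bases apart in the genome and 865 apart in the transcript. The second probe holds the bases AATAAA, the motif of a polyadenylation signal, and the first is open in 1 of 3 forward reading frames. Whether that motif serves as a signal here was not tested. The file lists 4 accessions for each probe, of which they share 2. The first probe is shown because its ratio and that of the 3' probe are set against each other below.

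Esrp1 probe A_55_P2033767: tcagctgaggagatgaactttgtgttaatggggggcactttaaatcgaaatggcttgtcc

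Probes of related members had little sequence in common. The longest run shared by a Snai1 and a Snai2 probe on either strand was 7 bases, for Twist1 and Twist2 it was 6, for Zeb1 and Zeb2 it was 6, and for Esrp1 and Esrp2 it was 7. None of the 13 probes had the same sequence as another non-control probe on the array.

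Transcripts of 6 of the 10 genes were detected throughout in both RNAs, namely Vim, Snai1, Snai2, Twist2, Esrp1 and Esrp2. A probe of each was flagged by the scanner software as well above background on all 4 arrays in 15p cells and in 0p cells, as was the case for 52.6% of all gene names on the array. Zeb1 was flagged on 4 arrays in 0p cells and on 3 in 15p cells. Cdh2 was flagged on some arrays, and Twist1 and Zeb2 on none in either RNA. Having no flagged probe on any array was the case for 27.8% of all gene names, so the 2 of 10 seen here are near the background share. By a looser rule, a signal over the 95th percentile of the negative controls, 8 of 10 members were detected on all arrays in both RNAs and 0 on none. That rule adds Cdh2 and Zeb1, whose lowest signals were 1.09 and 1.13 times the percentile. The share of all gene names that meet it was not computed, so this count is not set against the array.

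**Figure D1:**
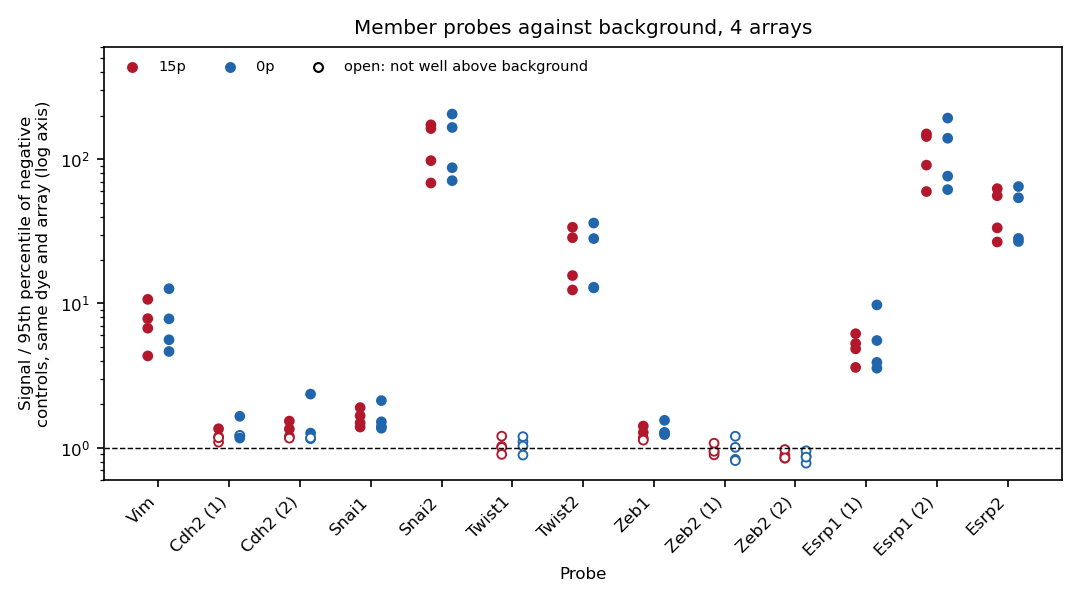
Mean spot signal of each of the 13 probes divided by the 95th percentile of negative control signals in the same dye and array (log axis), for 15p cells (red) and 0p cells (blue), 1 point per array. Filled points are well above background by the software's flag, open points are not, and the dashed line marks the percentile itself. Numbers in brackets count the probes of one gene in the order of their names. Red and blue points overlap for every probe, and the points of Twist1 and Zeb2 lie around the dashed line.

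Vim encodes vimentin, the intermediate filament of mesenchymal cells, and its transcript was measured in both RNAs at close to the same level. Signals were 4.32 to 10.7 times the 95th percentile of the negative controls in 15p cells and 4.64 to 12.6 times in 0p cells. In the order replicate 1 forward, replicate 1 reverse, replicate 2 forward and replicate 2 reverse, the log2 level after normalisation was 8.61, 8.66, 8.97 and 8.97 in 15p cells. In 0p cells, in the same order, it was 8.70, 8.65, 8.98 and 8.94. Both arrays of replicate 2 were above both arrays of replicate 1 in each RNA, and the 15p and 0p values overlapped. Replicate 2 exceeded replicate 1 by 0.34 in 15p cells and by 0.29 in 0p cells. The log2 ratio of 15p over 0p was -0.014 ± 0.037 (SD, n = 2 replicates), with a 95% interval of -0.14 to 0.11 (limma, adjusted p = 0.965).

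Cdh2, which encodes N-cadherin, the cadherin that mesenchymal and neural cells carry, was close to background. Signals of its probe A_55_P2000133 (mm9 chromosome 18, 16747386 to 16747445) were 1.09 to 1.35 times the 95th percentile of the negative controls in 15p cells and 1.16 to 1.65 times in 0p cells. It was flagged on 1 array in 15p cells and on 2 in 0p cells. The other Cdh2 probe, A_55_P2029711, was flagged on 2 arrays in each RNA. Both arrays of replicate 2, and in 0p cells 1 array of replicate 1, carried these flags between them. Cdh2 did not enter the test, and no ratio is given.

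Snai2, which encodes Slug, had a signal far above background. It was 68.4 to 173 times the 95th percentile of the negative controls in 15p cells and 70.9 to 206 times in 0p cells (probe at mm9 chromosome 16, 14709361 to 14709420). Its log2 level in the array order given above was 12.83, 12.77, 12.80 and 12.89 in 15p cells and 12.78, 12.88, 13.02 and 12.88 in 0p cells. These values overlapped, and the highest of the 8 was the 0p value on the forward array of replicate 2. The log2 ratio was -0.067 ± 0.049 (SD, n = 2), with an interval of -0.19 to 0.055 (limma, adjusted p = 0.825). Without that array it was -0.0011, and without the forward array of replicate 1 it was -0.13.

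Snai1, the founding Snail factor, lay near background but was flagged on every array. Signals were 1.39 to 1.89 times the negative control percentile in 15p cells and 1.36 to 2.12 times in 0p cells. Its log2 level was 6.73, 6.87, 6.91 and 6.70 in 15p cells and 6.78, 6.66, 6.79 and 6.74 in 0p cells. The ratio was negative on 2 arrays and positive on 2, and its mean was 0.061 ± 0.023 (SD, n = 2; limma, adjusted p = 0.832). With the software's processed signals, to which no offset was added, it was 0.22, with an interval of 0.066 to 0.38 and an unadjusted p of 0.0153 (limma, adjusted p = 0.834).

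Twist2, a basic helix-loop-helix factor known from dermal fibroblasts, was well above background in these keratinocyte RNAs. Its signals were 12.4 to 33.7 times the negative control percentile in 15p cells and 12.8 to 36.1 times in 0p cells. The log2 level was 10.38, 10.22, 10.55 and 10.21 in 15p cells and 10.23, 10.38, 10.23 and 10.40 in 0p cells. Whichever RNA was in Cy5 had the higher level on every array. The log2 ratio of 15p over 0p was 0.15 and 0.32 on the forward arrays, and -0.16 and -0.19 on the reverse arrays. Averaged over the dyes it was 0.030 ± 0.048 (SD, n = 2; limma, adjusted p = 0.916).

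Twist1, its close relative and a driver of neural crest and mesoderm development, was flagged well above background on no array. Signals in the same array order were 61.9, 59.1, 49.2 and 82.3 in 15p cells and 58.7, 55.1, 87.6 and 68.7 in 0p cells. The negative control percentiles that apply to them were 60.9, 59.1, 54.8 and 68.6, and 53.6, 62.1, 85.5 and 57.7. The signal exceeded its percentile on 3 of 4 arrays in each RNA, by a factor of at most 1.20. Twist1 did not enter the test, and no ratio is given.

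Zeb1 and Zeb2 encode zinc finger homeodomain repressors that microRNAs of the miR-200 family hold down in epithelia. Zeb1 signals (mm9 chromosome 18, 5774613 to 5774672) were 1.13 to 1.41 times the negative control percentile in 15p cells and 1.23 to 1.54 times in 0p cells. Its log2 level was 6.47, 6.68, 6.63 and 6.34 in 15p cells and 6.62, 6.50, 6.69 and 6.48 in 0p cells. The lowest value was that of 15p cells on the reverse array of replicate 2, the array on which Zeb1 was not flagged in that RNA. Zeb1 entered the test only through its 0p flags, and its log2 ratio was -0.040 ± 0.077 (SD, n = 2; limma, adjusted p = 0.885). With processed signals the ratio was -0.23, with an interval of -0.50 to 0.039. The probes of Zeb2 had signals of 0.779 to 1.20 times the negative control percentile over all arrays and both RNAs, and neither was flagged anywhere.

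The splicing regulators Esrp1 and Esrp2, both restricted to epithelia in most tissues, were measured well above background. The 3' probe of Esrp1 had signals of 59.7 to 150 times the negative control percentile in 15p cells and 61.5 to 193 times in 0p cells. Its log2 level was 12.65, 12.56, 12.60 and 12.78 in 15p cells and 12.56, 12.63, 12.82 and 12.78 in 0p cells. The log2 ratio was -0.053 ± 0.082 (SD, n = 2), with an interval of -0.18 to 0.074 (limma, adjusted p = 0.852). In the array order given above it was 0.084, -0.075, -0.22 and -0.0018.

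The Esrp1 probe whose sequence is printed above gave 0.012, 0.19, -0.38 and -0.10 on these arrays. Its mean was -0.070 ± 0.24 (SD, n = 2), within 1 SD of the value of the 3' probe. For both probes the lowest ratio was on the forward array of replicate 2. Without that array the ratio of the 3' probe was 0.023. The difference between the probes was not tested.

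Esrp2 had signals of 26.7 to 62.5 times the negative control percentile in 15p cells and 26.9 to 64.6 times in 0p cells. Its log2 level was 11.32, 11.37, 11.39 and 11.31 in 15p cells and 11.33, 11.30, 11.35 and 11.23 in 0p cells. The ratio was positive on 3 of 4 arrays, with a mean of 0.042 ± 0.025 (SD, n = 2; limma, adjusted p = 0.873). Its range over the 4 arrays, 0.097, was the narrowest of the tested members, and that of Twist2, 0.52, the widest.

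**Figure D2:**
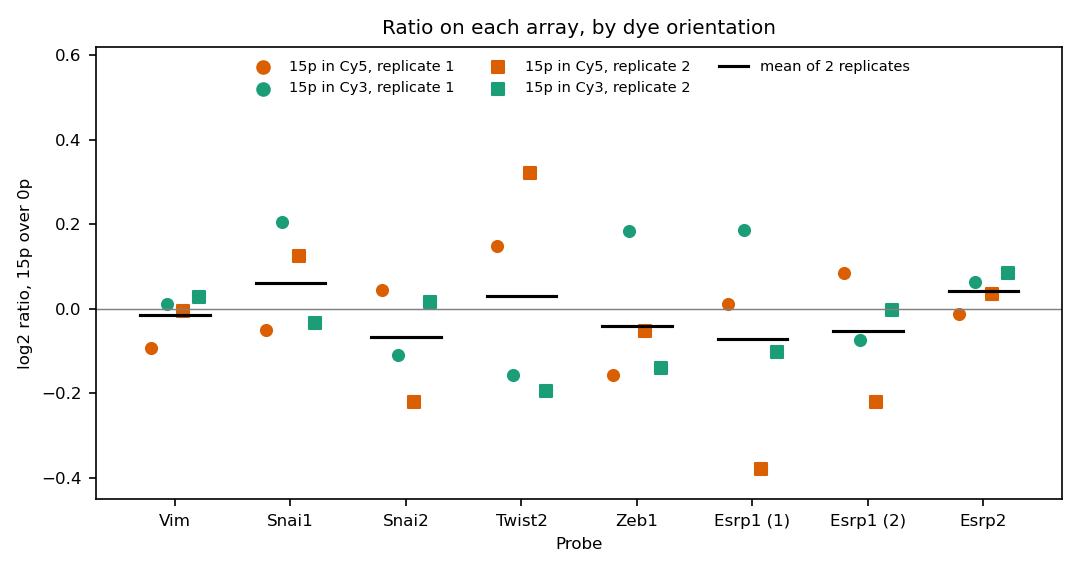
Log2 ratio of 15p over 0p on each of the 4 arrays for the 8 member probes that passed the filter on dim probes. Circles are replicate 1 and squares replicate 2, orange is 15p in Cy5 and green 15p in Cy3, and bars are means over 2 replicates; Esrp1 (1) is probe A_55_P2033767. For Twist2 the orange points lie above 0 and the green points below it, and the mean of every probe lies between -0.070 and 0.061.

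None of the members was called different between 15p and 0p cells. Of the 10 genes, 7 passed the filter on dim probes, which asks for the flag on all 4 arrays in at least 1 RNA. Of these, 3 had positive and 4 negative mean ratios, and 0 passed (limma with Benjamini-Hochberg adjustment at 0.05 over 17376 genes), where the share called among all tested genes was also 0%. At an unadjusted p under 0.05 there were 0 of 7, against 6.31% of all tested genes. A fit of the 4 arrays that took the replicate as a block and the dye as a term called 60 genes over the array, 7 higher and 53 lower, and again 0 of 7 members (lowest adjusted p = 1.00, limma). The missing calls do not show that levels were equal, so the intervals are the more useful values. In the fit of pair means, all 7 intervals lay within a 1.5-fold difference in either direction, which also held for 99.7% of tested genes. Without the forward array of replicate 2, the ratio was -0.036 for Vim, 0.018 for Snai1, -0.013 for Twist2, -0.066 for Zeb1 and 0.030 for Esrp2, and 0 of 7 members passed. When the forward array of replicate 1 was left out instead, the ratio was -0.13 for Snai2 and -0.13 for Esrp1. It was then 0.10 for Snai1, 0.073 for Twist2, 0.054 for Esrp2, 0.0074 for Vim and -0.014 for Zeb1. The forward array of replicate 2 was then alone in its dye orientation. With all 4 arrays and as folds of 15p over 0p, the interval ran from 0.910 to 1.08 for Vim and from 0.877 to 1.04 for Snai2. For Twist2 it ran from 0.938 to 1.11. The interval ran from 0.883 to 1.05 for Esrp1 and from 0.947 to 1.12 for Esrp2. Some other fits gave wider intervals. In log2, that of Vim ran from -0.42 to 0.39 with the channels taken apart and unpaired. In the block fit it ran from -0.19 to 0.16. In bulk RNA, fewer cells with a transcript and less transcript per cell cannot be told apart.

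**Figure D3:**
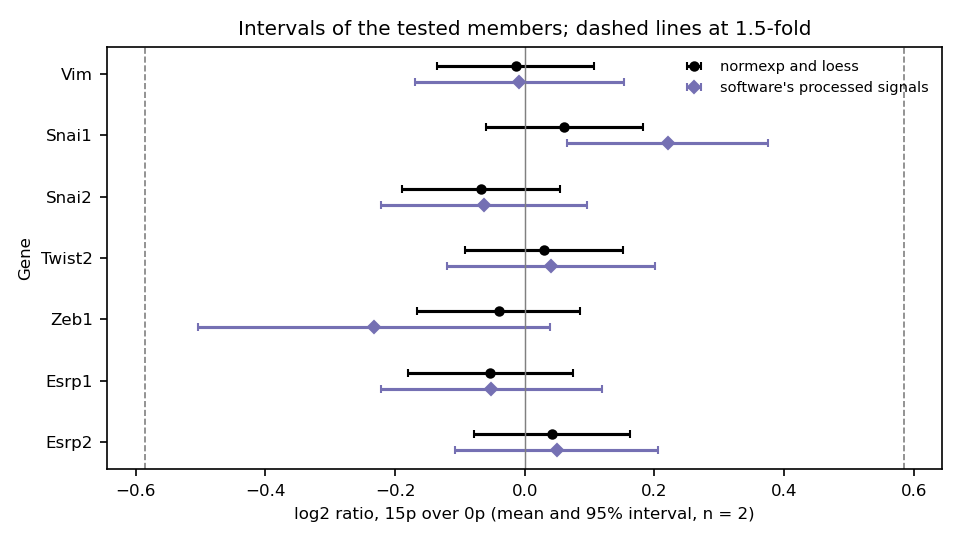
Mean log2 ratio of 15p over 0p with its 95% interval (limma, n = 2) for the 7 tested members, from spot signals corrected by normexp and loess (black) and from the software's processed signals (violet). Dashed lines mark a 1.5-fold difference. The intervals of both fits lie inside the dashed lines, and Snai1 and Zeb1 are the members whose mean moves most between the fits.

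No tested member kept 1 sign over the arrays. Of the 7 tested members, 0 had the same sign of 15p over 0p on all 4 arrays, against 6.78% of all tested genes. For Vim and Twist2 the sign turned with the dye on every array, as it did for 32.3% of all tested genes, so 2 of 7 is near the background share. The ratio of Cy5 over Cy3, averaged within each replicate so that the RNA difference cancels, was 0.21 ± 0.075 (SD, n = 2) for Twist2. It was positive on 4 of 4 arrays and larger in size than that of 90.9% of tested genes, but it did not pass (limma, adjusted p = 0.221), where 3.8% of all tested genes did. With median centring in place of loess it was 0.61 and passed (limma, adjusted p = 0.000128), where 10081 of 17376 tested genes did. For the other 6 tested members the dye ratio lay between -0.063 and -0.015. Loess sets the dye ratio of the average gene at each brightness to 0, so these are differences from other genes of like brightness.

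No gene of the upstream signals passed either. Of 10 listed genes of the TGF-beta arm, which induces the Snail and Zeb genes in many epithelia, all 10 were tested, with 3 positive and 7 negative ratios and a median of -0.032. Over all tested genes the median was 0.0025. Tgfb1, a ligand, had 0.12 ± 0.083 (SD, n = 2), and Inhba, an activin subunit, -0.092 ± 0.092. Without the forward array of replicate 2 they had 0.0078 and -0.052. Of 10 further transcription regulators, 6 were tested, with a median of 0.026, and Foxc2, Gsc, Klf8 and Prrx1 were above background on no array. Among all gene names, 27.8% were flagged nowhere. Fosl1, an AP-1 subunit, had 0.095 ± 0.040 (SD, n = 2), and 0.018 without that array, and none of the 6 passed.

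The epithelial counterpart was measured throughout. All 10 genes listed as gatekeepers of the epithelial state were well above background on all arrays in both RNAs, with a median ratio of 0.0034 and a range of -0.11 to 0.15. Cdh1, which encodes E-cadherin and is the classic target of Snail and Zeb repression, had -0.016 ± 0.026 (SD, n = 2). Elf3, an epithelial Ets factor, had 0.15 ± 0.072 and Klf4, a factor of barrier formation, -0.11 ± 0.083. Elf3 had 0.049 and Klf4 -0.019 without the forward array of replicate 2. No gene of the list passed.

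Other mesenchymal products were detected in part. Of 12 listed, 7 were tested, with a median of 0.035, and Mmp2, Thy1 and Cdh11 were above background on no array. Among all gene names, 27.8% were flagged nowhere and 52.6% throughout. Itga5, a fibronectin receptor subunit, had 0.17 ± 0.17 (SD, n = 2), and Fn1, fibronectin itself, had -0.096 ± 0.098. In replicate 2, Itga5 had 0.85 on the forward and -0.27 on the reverse array. Without that forward array Itga5 had 0.0036 and Fn1 0.014. None of the 7 passed.

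The transcripts that the Esrp proteins splice were all present. All 12 listed genes were tested, with a median of -0.018 and a range of -0.12 to 0.045, and 0 passed. Fgfr2 had 0.045 ± 0.017 (SD, n = 2) and Cd44 0.018 ± 0.059, values that are for the probe and do not tell splice forms apart. Slk, a kinase, had -0.12 ± 0.097 and Map3k7, the kinase TAK1, -0.077 ± 0.072. They had -0.018 and 0.038 without the forward array of replicate 2. Among 12 other splicing regulators, 11 were matched on the array, 10 were tested and 0 passed, with a median of -0.0099. Ptbp1, a repressor of exons, had 0.18 ± 0.18 and Hnrnpm, which opposes Esrp1 on Cd44, had -0.13 ± 0.15. Without that array they had -0.00026 and -0.0094. Rbfox2, known for mesenchymal splice forms, had -0.0020 ± 0.087.

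**Figure D4:**
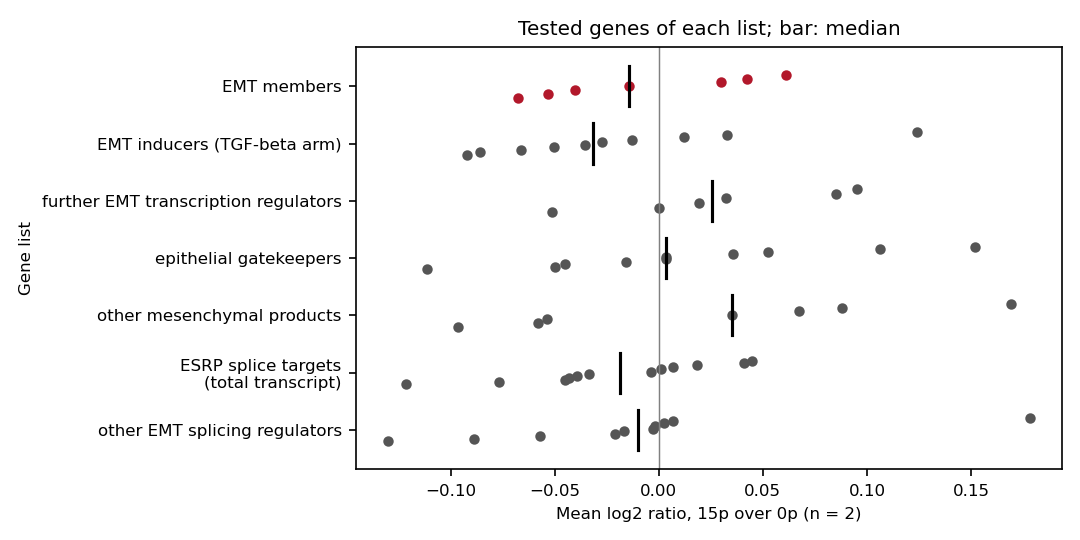
Mean log2 ratio of 15p over 0p (n = 2) for each tested gene of the member list (red) and of 6 lists of related genes (grey), with the median of each list as a bar. The members lie between -0.067 and 0.061, and the medians of the other lists between -0.032 and 0.035.

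Over these 6 lists, 65 genes were named, 54 were tested, 0 passed and 3 had an unadjusted limma p under 0.05. Among all tested genes the share under 0.05 was 6.31%. Without the forward array of replicate 1, a fit of the other 3 arrays called 14 genes of the member and related lists, none of them a member, among 3120 over the array. Tgfb1, Fosl1, Elf3, Klf4, Itga5, Fn1, Slk, Map3k7, Ptbp1 and Hnrnpm were among those called, with adjusted limma p from 1.43e-06 for Ptbp1 to 0.0415 for Fosl1. That fit took 1 common spread for all genes, and the forward array of replicate 2 was then alone in its dye orientation.

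Markers of other skin cells were detected in part, and the summed levels of each list overlapped between the RNAs. The sums take in every probe of a list, also those never flagged, and each level holds the offset of 50. For lists of mostly dim probes the overlap therefore says little about the share of such cells. Of 7 dermal fibroblast genes, 1 (Col3a1) had the flag throughout in both RNAs, and 4 (Dcn, Lum, Pdgfra and Pdgfrb) on none. The summed level of the fibroblast list, on the linear scale of normalised intensity, ran from 582 to 622 in 15p cells and from 571 to 653 in 0p cells. For the 6 melanocyte genes, 3 of them well above background throughout and Tyrp1 on no array, it ran from 1078 to 1175 and from 1102 to 1137. Of 5 endothelial genes, 2 were above background throughout and Cdh5, Tek and Emcn on no array, with sums of 2493 to 3459 in 15p cells and 2488 to 3898 in 0p cells. Of 6 immune genes, 3 were so and Lyz2 on no array, with sums of 5261 to 7088 and 5655 to 7165. Of 4 Schwann cell genes, 2 were so, with sums of 763 to 800 and 697 to 837. Among all gene names, 52.6% had the flag throughout and 27.8% on no array. The melanocyte, endothelial, immune and Schwann counts flagged throughout were near the first share, so they do not tell whether such cells were present. The part of such cells in the Vim, Twist2 and Snai2 signals was not tested.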

How the data were processed

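Per the file headers, each deposited scanner file holds mean spot and local background intensity from Agilent Feature Extraction 10.7.3.1, processed intensity, a log10 ratio of Cy5 over Cy3 and other columns of flags (0 or 1). The deposited value table repeats these log10 ratios (largest difference 0.0045, median 0 in each array) and served as an alternative. In R 4.3.3 with limma 3.58.1, spot signals were corrected by normexp (offset 50) and loess, without control spots and irregular spots (154 to 286 of 43020 an array). Symbols came from the RefSeq table of GRCm38.p6 through transcript accessions (26055 of 39429 probes), otherwise from the files. Probes flagged well above background in 1 RNA on each of the 4 arrays entered the fit (21660 probes), and the brightest stood for its gene (17376 genes). Pairs of arrays were averaged and tested against 0 (lmFit, eBayes, two-sided), a step tested on simulated data. The simulation had independent noise of equal size on all arrays and changes larger than any member ratio. It leaves out the wider spread of the forward array of replicate 2, so it does not show how the step does here. The block fit, the dye fit and those without 1 forward array took 1 common spread for all genes. SDs leave out the spread within a pair. Levels are log2 intensities after Aquantile scaling. The second array of a pair carried the same RNAs, per the labels, which is where the pairing comes from. The correlation of same-numbered arrays' deviations was -0.26. Replicate and slide coincide and cannot be told apart. The members and lists were chosen with earlier results of these data known. The rule for named genes takes all 10 members and, where no gene of a related list was called, its 2 largest ratios, of which 1 is not reported here, and Cdh1, Cd44, Fgfr2, Rbfox2, marker genes and genes above background on no array were named beyond it, after their values were seen. Promoters were not used here.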

Additional observations from a re-analysis of the deposited data

Results flagged for a closer look

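Vim and Twist2 had opposite effects in the dye orientations: the sign of 15p over 0p was one way on both forward arrays (15p in Cy5) and the other way on both reverse arrays, as for 32.3% of all tested genes. The Cy5 over Cy3 ratio, averaged over arrays, was -0.035 for Vim and 0.21 for Twist2, and neither passed (limma, adjusted p = 0.921 and 0.221, n = 2). With median centring in place of loess the value for Twist2 passed, where 10081 of 17376 tested genes did. The groups of replicates were too small for a search for outlying samples.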

How the results depend on the processing

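No member passed in any of the alternative fits of 15p over 0p that gave a test, which were 13, and the intervals of the 7 members tested stayed within 1.5-fold in each of them. Over all genes the count of 0 became 1 without the filter on dim probes (Rtn4, named after its value was seen) and 60 with the replicate block, which changed no call of a member. Leaving out 1 array gave 0 to 3120 calls over the array and 0 to 14 in the member and related lists, the highest without the forward array of replicate 1. Without the forward array of replicate 2 there were 88, and without its reverse array 1, again Rtn4. The cause was not tested. Crossed pairing of the arrays, chosen after the data were seen, also gave 60 calls, since with 2 pairs it uses the same residual as the block. Leaving out an array or a replicate turned the sign of small ratios: these ran from -0.040 to 0.012 for Vim, -0.013 to 0.073 for Twist2, -0.13 to 0.023 for Esrp1, -0.12 to 0.040 for Zeb1, -0.00026 to 0.36 for Ptbp1, -0.21 to 0.014 for Fn1 and -0.19 to 0.038 for Map3k7. Others kept their sign but moved by far, from -0.13 to -0.0011 for Snai2, 0.0014 to 0.12 for Snai1, 0.0078 to 0.24 for Tgfb1, 0.049 to 0.25 for Elf3, -0.20 to -0.019 for Klf4, 0.0036 to 0.33 for Itga5, -0.23 to -0.018 for Slk and -0.25 to -0.0094 for Hnrnpm. The dye ratio called 661 of 17376 genes, 270 with processed signals, 278 with the value table and 1435 of 31883 without the filter. Median centring gave 10081 of 17376. Most tested genes thus passed with median centring, so passing there does not set a member apart. Median centring turned the dye ratio of Vim to 0.26, Snai2 to 0.50, Esrp1 to 0.49 and Esrp2 to 0.41, of which the last 3 passed (limma, adjusted p = 0.00147, 0.00172 and 0.00834), and raised that of Twist2 to 0.61, which passed too, and processed signals and the value table that of Snai1 to 0.069 and of Snai2 to 0.011. Above the 95th percentile of the negative controls, 8 of 10 members were detected in place of 6, and the share of all gene names was not computed. Ratios of dim probes (Snai1, Zeb1) are limited by signal over background.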
